A study of Mus musculus with 7 samples.

Results

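The genes described here encode 36 subunits of BAF and NuRD, a pair of chromatin remodelling complexes: 25 of BAF and 11 of NuRD, among 54838 genes in the deposited table. They were chosen by gene symbol, and each symbol matched 1 Ensembl gene on GRCm38. RNA was sequenced from 7 mouse cultures. Both groups of induced pluripotent stem cell (iPSC) lines were reprogrammed from splenic germinal center (GC) B cells (B220+ CD38- Fas+) of male mice immunized with SRBC for 9 days. The 3 M colonies carry M in their titles, read here as those GC B cells that a Myc-GFP reporter showed to have had T cell help, because the design text names only that source beside bulk cells. The 3 GC colonies came from bulk GC B cells. Both sources spent 6 days with cytokines on mouse embryonic fibroblast feeders (MEF), and reprogramming with doxycycline (Dox) lasted 10 days. They were then kept 4 days without Dox, picked as single colonies and passaged on gelatin, and feeders were depleted by 45 min of pre-plating. The 1 library of V6.5, an embryonic stem cell (ESC) line, is the pluripotent comparison. All cultures grew in KO-DMEM with serum and LIF. Each iPSC library is 1 picked clone, no label names the donor mouse of a clone, and the p-values below measure the spread between these clones only.

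BAF complexes use the ATPase Smarca4 or Smarca2 to slide or evict nucleosomes, which opens enhancers and promoters. They exist as 3 assemblies: canonical BAF with Arid1a or Arid1b and a Dpf subunit, polybromo BAF (PBAF) with Arid2, Pbrm1, Brd7 and Phf10, and non-canonical BAF with Brd9. Mouse ESCs are known for a canonical form built on Smarca4, Smarcc1 and Actl6a, whereas neurons switch to Actl6b and to Dpf1 or Dpf3. NuRD joins the remodelling ATPase Chd4 or Chd3 to the histone deacetylases Hdac1 and Hdac2 through MTA scaffolds, GATAD2 bridges and either Mbd2 or Mbd3. It tunes down active genes in ESCs and is known to let them leave the pluripotent state.

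Libraries held 31139508 to 35728921 counts. The labelled cell types were checked against marker lists. The 11 pluripotency markers summed to 6082 to 6653 CPM (counts scaled to library size and composition) in the 6 iPSC colonies and 8612 CPM in ESC. The 10 B cell markers summed to 11.3 to 14.0 CPM in iPSC colonies and 13.1 CPM in ESC, 10 neuron markers to 316 to 347 CPM and 464 CPM, with Dcx at 0 in every library, and 8 cardiac and muscle markers to 36.3 to 49.8 CPM and 49.6 CPM. The 14 fibroblast markers summed to 938 to 1198 CPM in iPSC colonies and 542 CPM in ESC, and 10 primitive endoderm markers to 1912 to 3760 CPM in iPSC colonies and 469 CPM in ESC. All 6 Y-linked genes listed stood at 0 in M colonies 2 and 3, although the source mice were male. Their sum was 132 CPM in M colony 1, 115 to 137 CPM in GC colonies and 25.3 CPM in ESC. M colonies 2 and 3 thus differed in this from every GC colony, and the cause was not tested. In bulk RNA, more cells of a type and more RNA per cell cannot be told apart.

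The upstream promoter sequence of 3 members is shown because they span the range of levels: the minor ATPase Smarca2, which differed most between iPSC colonies and ESC, its abundant paralog Smarca4, and the nearly silent neuronal subunit Actl6b. Each is the 250 bases before the RefSeq start on GRCm38.p6, written 5′ to 3′ on the gene's strand, with CpG dinucleotides in capitals.
Smarca2 (chr19:26604910-26605159, + strand): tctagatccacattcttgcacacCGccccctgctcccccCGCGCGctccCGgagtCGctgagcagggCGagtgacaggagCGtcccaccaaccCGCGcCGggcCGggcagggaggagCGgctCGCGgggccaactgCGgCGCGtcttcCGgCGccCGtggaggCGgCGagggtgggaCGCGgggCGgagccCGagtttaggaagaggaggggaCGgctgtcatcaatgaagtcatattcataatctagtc
Smarca4 (chr9:21615919-21616168, + strand): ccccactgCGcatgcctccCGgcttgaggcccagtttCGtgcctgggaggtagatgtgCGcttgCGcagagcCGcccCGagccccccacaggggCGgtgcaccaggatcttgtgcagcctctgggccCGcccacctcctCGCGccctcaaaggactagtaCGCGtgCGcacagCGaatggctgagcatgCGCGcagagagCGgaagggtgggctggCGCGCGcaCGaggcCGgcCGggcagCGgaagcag
Actl6b (chr5:137553296-137553545, + strand): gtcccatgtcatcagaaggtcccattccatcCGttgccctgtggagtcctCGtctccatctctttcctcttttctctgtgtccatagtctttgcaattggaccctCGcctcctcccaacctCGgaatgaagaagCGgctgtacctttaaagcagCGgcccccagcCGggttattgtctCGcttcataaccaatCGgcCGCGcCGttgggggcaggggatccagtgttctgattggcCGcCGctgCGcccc

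These windows held 28 CpG for Smarca2, 25 for Smarca4 and 15 for Actl6b. Of the 36 members, 28 had at least 1 promoter in the RefSeq table, 33 promoters in all, with a median of 23 CpG (range 4 to 51) against a median of 10 over 21262 protein-coding promoters. Of these 33 windows, 6 precede an internal start over 1000 bases inside the annotated gene, among them the only Smarcd2 window, which held the fewest CpG. Smarca2 and Smarca4 had similar CpG counts at very different RNA levels. The E-box CACGTG, a palindrome that Myc and related factors can bind, was found in 3 of 33 member windows (9.09%; Bcl7b, Bcl7c and Pbrm1) and in 6.63% of all. TATAAA, searched on both strands, was found in 2 (6.06%; Mbd3 and Smarcd2) and in 11.6% of all. A match to one of these motifs cannot overlap a match to the other, and a match is a description of the sequence only.

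Levels were first set side by side per length, as scaled CPM per kb of exon. This length is the union of all annotated exons, not that of the transcript in use. Mbd3 was divided by 1.99 kb and Smarcb1 by 7.93 kb, for example. Ranks between genes, and the paralog shares below, therefore depend on the annotation. NuRD genes held the 4 highest ranks in the iPSC colonies: Mbd3 (92.2 ± 7.4 per kb; SD, n = 6), the deacetylase gene Hdac1 (78.8 ± 6.9), Chd4 (71.1 ± 5.4) and the scaffold gene Mta1 (62.0 ± 3.2). The neighbours Mbd3 and Hdac1, and likewise Hdac1 and Chd4, and Mta1 and the highest BAF gene Smarca4, did not differ beyond the sum of their SDs. Smarca4 stood at 56.2 ± 4.3 per kb, above Mta1 in GC colony 3 (59.97 and 58.67 per kb), and was followed by the core scaffold Smarcc1 (42.1 ± 2.2), the actin-related Actl6a (42.0 ± 1.4) and the core subunit Smarcd1 (41.2 ± 1.3), which lay within their spread of each other. In ESC the 4 NuRD genes stood at 93.2, 85.2, 62.0 and 74.5 per kb, and Smarca4 at 57.8 per kb. The lowest ranks were Dpf1 (2.05 ± 0.20 per kb in iPSC colonies and 2.64 in ESC), Smarcd3 (0.926 ± 0.203 and 1.37), Smarca2 (0.854 ± 0.179 and 0.265), Dpf3 (0.292 ± 0.059 and 0.198) and Actl6b. Actl6b had 4, 2 and 0 counts in M colonies 1 to 3, 2, 0 and 0 counts in GC colonies 1 to 3, and 2 counts in ESC. Only M colony 1 exceeded the 3 counts that a count of 0 allows (0.0840 to 0.0963 CPM by library, for counting error only). Actl6b did not pass the low-count filter, so it was not tested in the main fits.

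**Figure D1:**
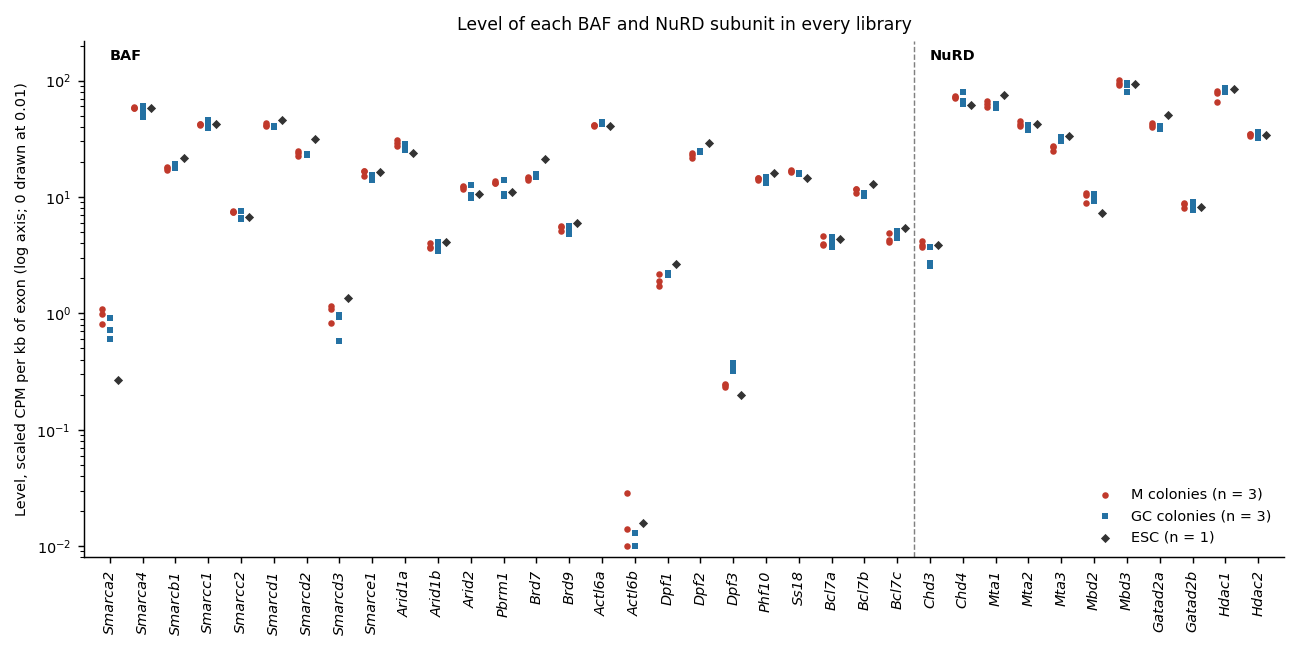
Level of each subunit in every library, in scaled CPM per kb of exon on a log axis; circles are the 3 M colonies, squares the 3 GC colonies and diamonds the ESC library, and a value of 0 is drawn at 0.01. Most subunits sit at one height in all 7 libraries, Smarca2 is lower in ESC than in the colonies, and Actl6b lies near 0.

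The first comparison, M over GC colonies, asks whether the B cell state at sorting left a difference in these complexes. The cultures also differed in marker genes. All 10 primitive endoderm markers had positive log2 changes (median 0.64), and 3 of them passed (edgeR adjusted p under 0.05). Of 11 pluripotency markers 2 rose, as did 1 of 9 neuron markers. None of 12 fibroblast, 7 cardiac and muscle or 6 B cell markers passed. The part of such differences in the values below was not tested. Of the 35 members measured, 1 NuRD gene passed the test, Mta3, which fell in M colonies. None of the 24 measured BAF genes passed in edgeR, DESeq2 or limma-voom, and 1 (Smarca2) had an unadjusted p under 0.05, against 16.6% of all genes. Over all 18166 genes tested 3.97% passed (1.7% higher and 2.27% lower in M colonies), so the members' 1 of 35 (2.86%) is near the background. The median log2 change of the members was 0.05 (BAF 0.04, NuRD 0.05), against 0.003 over all genes. The 95% interval of the change lay within 1.5-fold in either direction for 31 of 35 members, against 56.0% of all genes tested. These shares are not matched for level, since only 9754 of the 18166 genes averaged over 10 CPM. The median SE was 0.07 for members and 0.14 over all genes. The M and GC values did not overlap for 5 of 35 members (14.3%), against 22.1% of all genes; 1 lay above, against 9.81% of all genes, and 4 lay below, against 12.3%.

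Mta3 encodes a NuRD scaffold (ENSMUSG00000055817, chromosome 17 from 83706163 to 83821516). It stood at 143, 146 and 131 CPM in M colonies 1 to 3, against 174, 174 and 160 CPM in GC colonies 1 to 3, and at 178 CPM in ESC. Every M value lay below every GC value. The log2 change was -0.28 ± 0.07 (SE; 0.824-fold, 95% interval 0.746 to 0.909), with an edgeR adjusted p = 0.0328. The call was lost without GC colony 1 (0.114) or GC colony 2 (0.216), without M colony 1 (0.0542) or M colony 3 (0.202), and without both M colonies 2 and 3 (0.339), with adjusted p of the same test in parentheses and a fall by 0.23 to 0.29 in each of these. The other scaffold genes did not pass: Mta1 stood at 184, 197 and 209 CPM in M colonies and 194, 188 and 182 CPM in GC colonies, and Mta2 at 167, 174 and 183 CPM in M colonies and 153, 153 and 170 CPM in GC colonies. On the per-length scale Mta3 made up 21.2%, 20.5% and 18.0% of the MTA RNA in M colonies, against 24.7%, 25.03% and 23.1% in GC colonies and 22.3% in ESC. The M shares lay below the GC shares, with ESC between them.

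Chd3, the minor NuRD ATPase, stood at 31.1, 35.3 and 32.9 CPM in M colonies, against 21.6, 22.7 and 31.6 CPM in GC colonies, and 32.6 CPM in ESC. GC colony 3 lay with the M colonies, so the groups overlapped, and the change of 0.38 ± 0.13 (SE) on the log2 scale did not pass (edgeR adjusted p = 0.141). Without a low-count filter it passed (0.00662), and without GC colony 3 it passed too (0.00749). Its partner Chd4, the main ATPase, stood at 583, 587 and 572 CPM in M colonies and 509, 537 and 635 CPM in GC colonies. As a share of the pair per length, Chd3 held 4.83%, 5.40% and 5.17% in M colonies and 3.87%, 3.86% and 4.52% in GC colonies, with no overlap, and 5.87% in ESC. With 3 against 3 colonies an exact permutation test cannot go below p = 0.10, so the shares were not tested.

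The remaining NuRD genes did not pass. The alternative MBD subunits Mbd2 and Mbd3 had log2 changes of 0.01 ± 0.10 and 0.11 ± 0.08 (SE). The bridges Gatad2a and Gatad2b had 0.09 ± 0.06 and 0.02 ± 0.07. Hdac2 had 0.01 ± 0.06 and Hdac1 -0.13 ± 0.08. Hdac1 stood at 226, 281 and 272 CPM in M colonies and 278, 296 and 277 CPM in GC colonies, with M colony 1 lowest.

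Among BAF genes, Smarca2 stood at 14.2, 11.6 and 15.5 CPM in M colonies and 10.3, 8.59 and 12.9 CPM in GC colonies, which overlapped (log2 change 0.37 ± 0.16 (SE), edgeR adjusted p = 0.263). Smarca4 stood at 378, 374 and 382 CPM in M colonies and 316, 345 and 388 CPM in GC colonies. The PBAF genes Pbrm1, a bromodomain protein that reads acetylated histones, and Arid2, its DNA-binding partner, showed the same layout. Pbrm1 stood at 118, 121 and 117 CPM in M colonies and 89.97, 94.7 and 123 CPM in GC colonies, and Arid2 at 126, 132 and 130 CPM and 105, 111 and 136 CPM. GC colony 3 was the highest library for each of these 3 genes. Without GC colony 3 both PBAF genes passed (edgeR adjusted p = 0.00767 for Pbrm1 and 0.0393 for Arid2), with log2 changes of 0.36 and 0.26.

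The other BAF members with groups that did not overlap were Ss18, an accessory subunit, higher in M colonies at 157, 154 and 162 CPM against 150, 147 and 148 CPM in GC colonies, and Dpf2, Dpf3 and Actl6a, lower in M colonies. Dpf2, the PHD finger subunit of canonical BAF, stood at 142, 154 and 149 CPM in M colonies and 162, 158 and 159 CPM in GC colonies. Actl6a differed by a log2 change of -0.07 ± 0.06 (SE). Dpf3 was low, at 1.04, 1.02 and 0.982 CPM in M colonies and 1.36, 1.43 and 1.57 CPM in GC colonies. None of these passed the test. The core genes Smarcb1, Smarcc1, Smarcc2, Smarcd1, Smarcd2, Smarcd3 and Smarce1 had log2 changes from -0.09 (Smarcb1) to 0.29 (Smarcd3). Smarcd3 shares 48.2% of its exon bases with other genes, so its counts are uncertain; Smarcd1 shares 12.7%, Actl6a 11.6% and Phf10 9.56%. The remaining BAF genes were the DNA-binding subunits Arid1a (0.09) and Arid1b (0.01), the PBAF subunits Brd7 (-0.08) and Phf10 (0.003), Brd9 of non-canonical BAF (0.08), the neuronal Dpf1 (-0.17) and the accessory subunits Bcl7a (0.02), Bcl7b (0.11) and Bcl7c (-0.12), with log2 changes of M over GC colonies in parentheses. None of them passed, and their colonies overlapped.

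**Figure D2:**
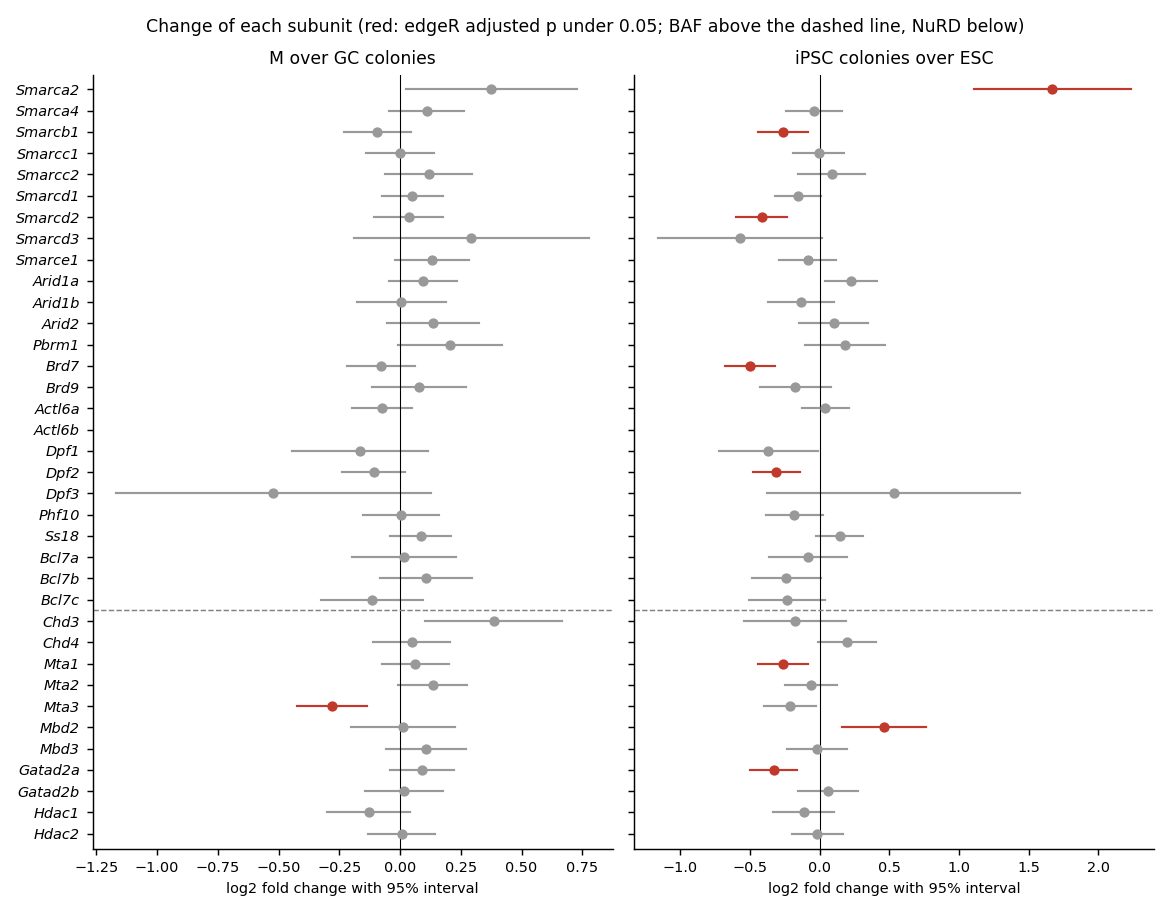
The log2 fold change of each member with its 95% interval, for M over GC colonies (left, 3 against 3) and iPSC colonies over ESC (right, 6 against 1); red marks an edgeR adjusted p under 0.05. On the left Mta3 alone is red, and on the right Smarca2 lies farthest from 0.

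GC colonies 1 and 3 differed in a way that followed annotated exon length. Genes over 10 CPM were split by exon length into 5 equal classes. Between GC colony 3 and GC colony 1, those in class 1 (up to 2.62 kb) had a median log2 difference of -0.18, and those in class 5 (8.01 kb or more) one of 0.18. Set against the mean of the 6 colonies, the class 1 and class 5 medians were 0.08 and -0.09 in GC colony 1 and -0.09 and 0.09 in GC colony 3. They were smaller in M colonies, at 0.03 and -0.01 in M colony 1, -0.02 and 0.03 in M colony 2, and -0.007 and 0.03 in M colony 3. Of the 33 members over 10 CPM, 9 of the 10 in class 5 were higher in GC colony 3, and 6 of the 7 in classes 1 and 2 were lower there. The largest differences were in Chd3 (log2 difference 0.54, 8.44 kb), Pbrm1 (0.45, 8.85 kb) and Arid2 (0.37, 10.7 kb), and the lowest was in Mbd3 (-0.28, 1.99 kb), which encodes a short protein. The median for the 10 longest members was 0.30. The spread between GC colonies was larger than that between M colonies for 22 of 35 members (62.9%), against 49.3% of all genes tested. By complex it was 16 of 24 BAF and 6 of 11 NuRD genes. Chd4 for example had a coefficient of variation of 1.28% in M colonies and 11.7% in GC colonies, while Dpf1 went the other way, with 12.5% in M colonies and 2.05% in GC colonies. Between group means the length trend was smaller, with a median log2 difference of M over GC colonies of 0.003 in class 1 and 0.04 in class 5. With each library's length trend taken out, an alternative added once the data had been seen, Mta3 again was the 1 member to pass. What caused the trend was not tested.

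**Figure D3:**
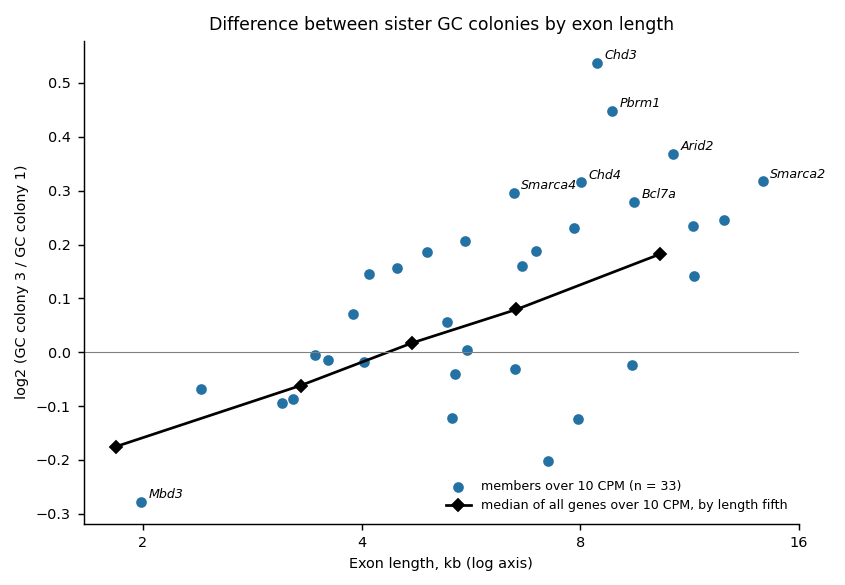
The log2 difference of GC colony 3 over GC colony 1 against exon length on a log axis, for 33 members over 10 CPM (points) and as the median of all genes over 10 CPM in each length class (diamonds). Long genes such as Chd3 and Pbrm1 lie high, and Mbd3 lies lowest.

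iPSC colonies were compared with ESC to ask how far the subunit makeup of reprogrammed cells resembled that of an established pluripotent line. Only 1 ESC library was given, so the error estimate comes from the colonies and is assumed to hold for ESC. Of 24 measured BAF genes, 1 rose in iPSC colonies (Smarca2), 4 fell (Brd7, Smarcd2, Dpf2 and Smarcb1) and 19 did not pass. Of 11 NuRD genes, 1 rose (Mbd2), 2 fell (Gatad2a and Mta1) and 8 did not pass. That is 8 of 35 members (22.9%), against 16.3% of all 20502 genes tested; 2 of 35 rose against 8.76% of all genes, and 6 of 35 fell against 7.56%. The median log2 change of the members was -0.09 (BAF -0.11, NuRD -0.06), against 0.02 over all genes. These shares and medians are not matched for level either. The median SE was 0.10 for members and 0.22 over all genes. The ESC value lay outside the range of the 6 colonies for 21 of 35 members (60.0%), against 51.4% of all genes. In 6 members the colonies lay above ESC and in 15 below, against 25.7% of all genes each way.

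Smarca2 encodes the alternative BAF ATPase, which is known from more differentiated cells (ENSMUSG00000024921, chromosome 19 from 26605050 to 26778322). It ran from 8.59 to 15.5 CPM in the 6 iPSC colonies, with a median of 12.2 CPM, against 3.79 CPM in ESC. Even the lowest colony, GC colony 2, stood above ESC. The log2 change was 1.67 ± 0.26 (SE; 3.19-fold, 95% interval 2.16 to 4.70), with an edgeR adjusted p = 6.66e-04, and it held in every leave-out of 1 colony. Smarca4 ran from 316 to 388 CPM in iPSC colonies and stood at 374 CPM in ESC, with a log2 change of -0.04 ± 0.09 (SE) and a 95% interval of -0.24 to 0.16. Of the ATPase RNA per length, Smarca2 held 1.12% to 1.81% in iPSC colonies and 0.457% in ESC, so Smarca4 made up 98.2% or more in every library. Of the 14 fibroblast markers, 12 were measured and 7 of these rose in iPSC colonies, and all 10 primitive endoderm markers rose. Among 9 neuron markers measured, 1 rose and 3 fell, and among 7 cardiac and muscle markers 2 rose and 1 fell. None of 7 B cell markers passed. Over all genes tested, 8.76% rose and 7.56% fell. Of the 11 pluripotency markers 9 fell (median log2 change -0.48), the direction of the 6 falling members, and their part in those results was not tested. By colony, the primitive endoderm sum was 3585, 2213 and 3760 CPM in M colonies 1 to 3 and 2269, 1912 and 2339 CPM in GC colonies 1 to 3. M colony 3 had the highest and GC colony 2 the lowest value of both Smarca2 and that sum, while M colony 2 lay above GC colony 1 in Smarca2 and below it in that sum. The fibroblast sum was 1198, 1052 and 942 CPM in M colonies 1 to 3 and 938, 1005 and 988 CPM in GC colonies 1 to 3. Its highest value was in M colony 1 and its lowest in GC colony 1. The part of these cell types in the result was not tested.

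A pair of the falling genes, Brd7 and Gatad2a, lies on chromosome 8. The median log2 difference of 546 chromosome 8 genes over 10 CPM was -0.30 in iPSC colonies over ESC, while the other chromosomes ran from -0.10 (chromosome 17) to 0.06 (X). Brd7, the bromodomain subunit that marks PBAF (chromosome 8 from 88331039 to 88362194), stood at 74.1, 78.4 and 77.0 CPM in M colonies, 77.7, 83.0 and 80.9 CPM in GC colonies and 111 CPM in ESC. Brd7 fell by 0.50 ± 0.08 (log2, SE; edgeR adjusted p = 0.00106). Gatad2a, a bridge between the MBD and ATPase parts of NuRD (chromosome 8 from 69907076 to 69996384), stood at 234, 221 and 242 CPM in M colonies, 213, 226 and 214 CPM in GC colonies and 282 CPM in ESC, a fall by 0.33 ± 0.08 (edgeR adjusted p = 0.0108). With the chromosome's median taken out of the ESC library, also an alternative added later, Brd7 changed by -0.20 (0.1435) and Gatad2a by -0.03 (0.867), with edgeR adjusted p in parentheses, and neither passed.

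**Figure D4:**
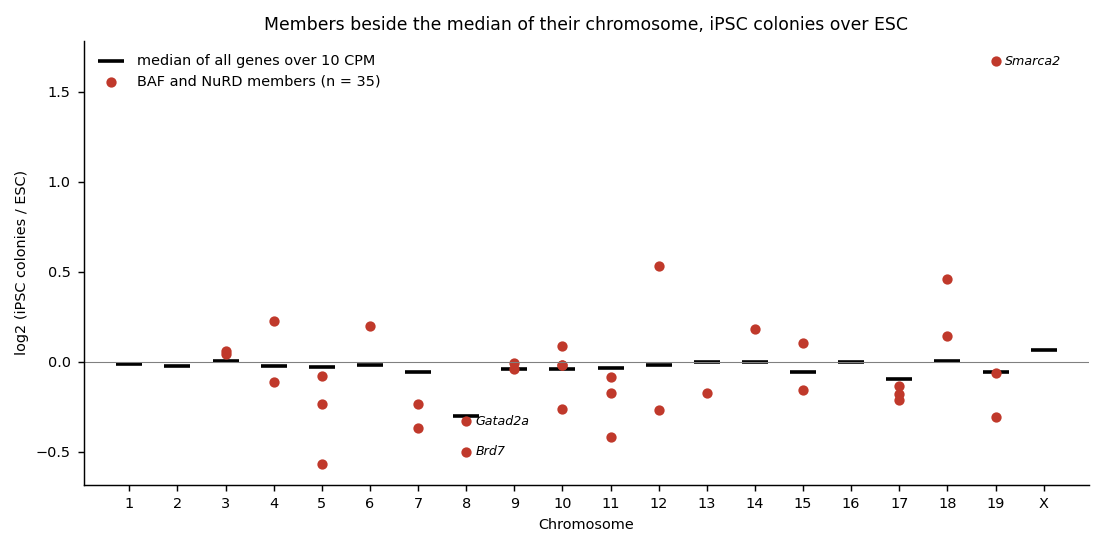
The log2 difference of iPSC colonies over ESC for 35 members (points), by chromosome, beside the median of all genes over 10 CPM on that chromosome (short black lines). The chromosome 8 line lies at -0.30, with Gatad2a beside it and Brd7 below, and Smarca2 lies highest.

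Of the other BAF genes that fell, Smarcd2, a core subunit with known roles in blood cells, ran from 80.7 to 89.4 CPM in iPSC colonies, against 112 CPM in ESC. Smarcd2 fell by 0.42 ± 0.08 (log2, SE; edgeR adjusted p = 0.00444). Dpf2 ran from 142 to 162 CPM in iPSC colonies, against 191 CPM in ESC, and fell by 0.31 ± 0.08 (edgeR adjusted p = 0.0153). Both calls held in every leave-out of 1 colony. Smarcb1, the core subunit that contacts the nucleosome's acidic patch, ran from 134 to 153 CPM in iPSC colonies, against 172 CPM in ESC. It fell by 0.26 ± 0.08 (edgeR adjusted p = 0.0478), and that call was lost in 5 of 6 leave-outs (all but GC colony 3; adjusted p up to 0.0898), without M colonies 2 and 3 (0.103), by limma-voom (0.0519) and with the length trend (0.0649) or the chromosome 8 median (0.0502) taken out.

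In NuRD, Mbd2, which binds methylated CpG, stood at 34.5, 28.3 and 33.7 CPM in M colonies and 33.9, 29.6 and 31.9 CPM in GC colonies, against 23.2 CPM in ESC. It rose by 0.46 ± 0.14 (SE) on the log2 scale (edgeR adjusted p = 0.0378), a call lost by limma-voom (0.0565) and without GC colony 1 (0.0577) or 2 (0.0513), or without M colony 3 (0.0655). Mbd3, its paralog with little affinity for methylated DNA in mammals, ran from 157 to 201 CPM in iPSC colonies and stood at 185 CPM in ESC. Per length Mbd2 held 8.81% to 11.1% of the pair in iPSC colonies and 7.19% in ESC. Mta1 ran from 182 to 209 CPM in iPSC colonies, against 231 CPM in ESC. It fell by 0.27 ± 0.08 (edgeR adjusted p = 0.0445), a call lost without GC colony 2 (0.0964), without M colony 1 (0.0539) or 2 (0.0695), and with the length trend taken out (0.0888).

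Shares within paralog families were set beside the single genes. Arid1a and Arid1b, alternative subunits of canonical BAF, had log2 changes of 0.23 ± 0.09 (SE; edgeR adjusted p = 0.103) and -0.13 ± 0.11. Arid1b held 10.5% to 12.8% of the Arid1 RNA per length in iPSC colonies and 14.7% in ESC. Gatad2b held 16.2% to 19.2% of its pair in iPSC colonies and 13.8% in ESC, and its partner Gatad2a is one of the chromosome 8 genes. Smarcd2 held 33.6% to 36.9% of the Smarcd RNA in iPSC colonies and 39.8% in ESC. The ESC share lay outside the colonies' range for each of these 3 genes. Over 28 genes in 12 families, the colonies' shares lay above the ESC share for 7, below it for 8 and around it for 13, and in the Smarcc, Actl6, Bcl7 and Hdac families every member's ESC share lay within the colonies' range. Between M and GC colonies 2 shares lay above, 4 below and 22 overlapped. The 2 shares of a pair mirror each other, and no share was tested.

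**Figure D5:**
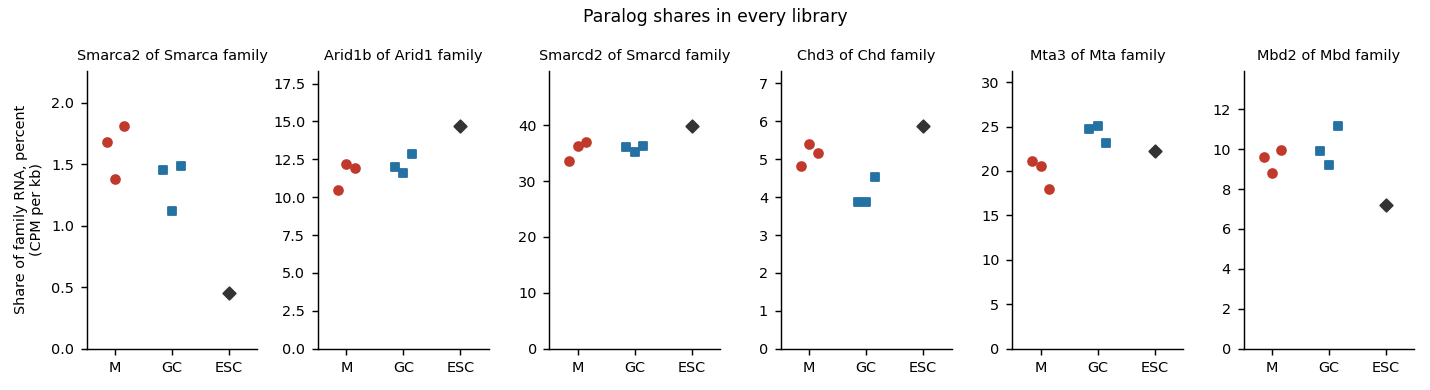
Share of 6 genes in the RNA of their paralog family, in percent on the CPM per kb scale, for each M colony, GC colony and the ESC library. The Smarca2 and Mbd2 shares are lower in ESC than in any colony, those of Arid1b, Smarcd2 and Chd3 are higher, and the Mta3 share is lower in M than in GC colonies.

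The members that did not pass in iPSC colonies over ESC had log2 changes from -0.57 (Smarcd3) to 0.53 (Dpf3). Smarcd3 ran from 2.98 to 5.89 CPM in iPSC colonies and stood at 7.003 CPM in ESC, and Dpf3 from 0.982 to 1.57 CPM and at 0.838 CPM. Chd4 (0.20), Pbrm1 (0.18), Ss18 (0.14), Arid2 (0.10), Smarcc2 (0.09) and Gatad2b (0.06) had positive log2 changes. Dpf1 (-0.37), Bcl7b (-0.24), Bcl7c (-0.23), Mta3 (-0.21), Phf10 (-0.18), Brd9 (-0.17), Chd3 (-0.17), Smarcd1 (-0.16), Hdac1 (-0.11), Smarce1 (-0.09), Bcl7a (-0.08) and Mta2 (-0.06) had negative ones. Among the closest to 0 were Smarcc1 (-0.01 ± 0.09, SE), Hdac2 (-0.02 ± 0.08), Mbd3 (-0.02 ± 0.10) and Actl6a (0.04 ± 0.08). For 28 of 35 members the 95% interval lay within 1.5-fold in either direction, against 34.4% of all genes tested, shares again not matched for level. A p that misses the threshold does not show equal levels; these intervals give the sizes that remain possible.

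Other remodelling genes were counted beside the members. Over all genes tested, 3.97% passed in M over GC colonies and 16.3% in iPSC colonies over ESC. In M over GC colonies, 1 of 6 other BAF genes passed, Actb, the actin subunit that also builds the cytoskeleton, at 2917 ± 161 CPM in M colonies and 2368 ± 201 CPM in GC colonies (SD, n = 3 each). None of 12 other NuRD subunits and partners (3 at an unadjusted p under 0.05), 12 ISWI (1), 29 INO80, SRCAP and Tip60 (3), 14 other CHD and SNF2 (1) or 20 Sin3 and CoREST genes (1) passed in edgeR; 16.6% of all genes had an unadjusted p under 0.05. In iPSC colonies over ESC, Bcl11a, a zinc finger partner of BAF, rose and Bicral, a subunit of non-canonical BAF, fell among the 6 other BAF genes. Bcl11a stood at 3.83 ± 0.44 CPM in M colonies, 2.17 ± 0.59 CPM in GC colonies and 1.14 CPM in ESC. Among the 12 other NuRD genes Pwwp2b rose, while the histone chaperone Rbbp4, the demethylase Kdm1a and the pluripotency factor Sall4 fell. Sall4 averaged 262 ± 12 CPM in iPSC colonies (SD, n = 6) and stood at 350 CPM in ESC. The counts were 1 up and 0 down of 12 ISWI genes (Baz1a), 0 up and 3 down of 29 INO80, SRCAP and Tip60 genes (Mcrs1, Vps72 and Ruvbl2), 0 of 14 other CHD and SNF2 genes (5 at an unadjusted p under 0.05, against 28.6% of all genes), and 0 up and 3 down of 20 Sin3 and CoREST genes (Sap30, Sin3b and Tbl1xr1). Rbbp4 and Tbl1xr1 passed only narrowly. Sap30 and Sin3b also lie on chromosome 8.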

How the data were processed

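The authors deposited 1 table of raw, unnormalized counts per gene. STAR 2.7.10a and featureCounts 2.0.6 were used with mm10 (GRCm38), per the submitters' processing notes, which name DESeq2 too. No source used here gives the strand setting, so overlapping and antisense genes may share counts. The design text names a non-stranded library and the sample protocol a directional kit. Gene names, exon lengths and positions came from GENCODE M21 on GRCm38, which matched 54809 of 54838 genes. Exon length is the union of all annotated exons. Genes were filtered with filterByExpr, given TMM factors, and tested in edgeR 4.0.16 (R 4.3.3) by quasi-likelihood F tests, with Benjamini-Hochberg adjustment over all genes and a threshold of 0.05: M against GC colonies in the 6 iPSC libraries, and the mean of both colony groups against ESC in all 7. Levels are CPM on the scale of the 7-library fit. A standard error (SE) is the absolute log2 change divided by √F. DESeq2 1.42.0 and limma-voom (limma 3.58.1) were alternatives. The fits were also run on simulated counts, with the same spread setting for all genes. Those counts held no length trend, clone or chromosome effect, so that run cannot speak to such effects. Every member was named; of the other lists, up to 5 genes a list past the threshold. The members and all lists were chosen with earlier results of these data known.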

Additional observations from a re-analysis of the deposited data

Results flagged for a closer look

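Hdac1 in M colony 1 stood apart from the other colonies, at 226 CPM against 272 to 296 CPM in the other 5. The gap to the next colony was 0.662 of the whole range over the 6 colonies, above the critical value of Dixon's test. Chance alone gives such a gap in about 1 group in 20, and 35 members were looked at.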

How the results depend on the processing

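In M over GC colonies, the NuRD count of 1 became 2 with no low-count filter and 0 without M colonies 2 and 3, and ran from 0 to 2 when 1 colony was left out; the BAF count of 0 ran from 0 to 2. Over all genes, the 721 calls became 1318 with no low-count filter, 1110 with DESeq2 and 373 without M colonies 2 and 3, and ran from 244 to 814 with 1 colony left out. Between M and GC colonies the log2 levels correlated at 0.994 to 0.996. To look for pairing, each colony's deviation from the mean of its own group was taken per gene. These deviations correlated at 0.092, 0.083 and 0.148 between colonies with the same number, and at -0.130 to 0.046 between those with other numbers. Every colony's deviations thus correlated best with those of its own number, a hint from the data and not the design. Deviations from a mean of 3 colonies depend on each other. Not all 3 same-number values passed 0.1, and no label pairs the colonies. With the number as a replicate block, 0 BAF, 1 NuRD and 963 genes in all passed. In iPSC colonies over ESC, the BAF count of 5 became 3 with the chromosome 8 median taken out and ran from 4 to 5 in leave-outs, the NuRD count of 3 from 1 to 3, and the 3344 calls from 2575 to 3718. By limma-voom 1194 genes rose and 1584 fell, against 1795 and 1549 by edgeR.

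Changes of sign were seen only in members that did not pass, with log2 changes from -0.17 (Dpf1) to 0.29 (Smarcd3). In M over GC colonies, Smarcc1 (-0.0020) stood at 0.0016 with RLE size factors, 0.0031 with no filter, 0.0017 with DESeq2, 0.0020 with limma-voom and 0.00094 with the replicate block. Without M colonies 2 and 3 the log2 changes were Arid1b -0.060, Bcl7a -0.089, Bcl7c 0.041, Dpf1 0.019, Gatad2b -0.064, Hdac2 -0.034, Mta1 -0.030, Smarcd2 -0.043 and Smarcd3 -0.0047. With the length trend taken out they were Arid1b -0.029, Bcl7a -0.0092, Gatad2b -0.016, Hdac2 -0.0021 and Phf10 -0.0065. Leaving out 1 colony gave log2 changes of -0.052 to 0.078 for Arid1b, -0.067 to 0.096 for Bcl7a, -0.015 to 0.15 for Chd4, -0.039 to 0.083 for Gatad2b, -0.025 to 0.059 for Hdac2, -0.039 to 0.096 for Mbd2, -0.051 to 0.046 for Phf10 and -0.055 to 0.066 for Smarcc1. In iPSC colonies over ESC the leave-outs gave -0.036 to 0.0039 for Hdac2, -0.044 to 0.024 for Mbd3 and -0.035 to 0.024 for Smarcc1, the length trend gave 0.034, 0.079 and 0.0059 for these 3, and Mbd3 stood at 0.025 without M colonies 2 and 3. The cause of these changes was not tested. With 3 colonies a group and 1 ESC library, small changes in these genes could go undetected. The lone ESC library cannot separate its cell line from its culture.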
